A study of Mus musculus with 6 samples.

Results

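FoxO factors are forkhead transcription factors that insulin and growth factor signalling keep out of the nucleus. When phosphoinositide 3-kinase (PI3K) activates the kinase AKT, AKT phosphorylates FoxO proteins, 14-3-3 proteins hold them in the cytoplasm, and their target genes lose a driver. In blood-forming cells FoxO factors are known for keeping stem cells quiescent and resistant to oxidative stress, and their targets include cell cycle brakes and genes that feed back on insulin signalling. Control by phosphorylation is on the protein and is not read by RNA-seq.

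The genes described here are the transcription factor genes Foxo1, Foxo3 and Foxo4 and 7 reported FoxO targets, namely Ccng2, Pik3ip1, Irs2, Bcl6, Txnip, Cited2 and Cdkn1b. They were picked by gene symbol and are 10 of the 54532 genes in the count table. Each symbol matched 1 row. The counts of 8 of them were high enough to be tested, whereas Foxo1 and Bcl6 fell below the filter on low counts.

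The RNA came from AE9a leukemia cells of C57BL/6 mice. AE9a is a spliced form of the AML1-ETO fusion protein, and the leukemia began with c-Kit+ bone marrow cells that carried it on a retrovirus and was passed on by transplantation, with the cells for sequencing taken from the third generation of transplanted mice. Central bone marrow (CBM) cells were flushed from femurs and tibias, and endosteal bone marrow (EBM) cells were then released from these bones by collagenase, with 3 libraries from each region. All cells carry the same fusion, were kept in IMDM with serum around the sort, and have no drug or age in their labels, and flushing or digestion coincides with the region in every library, so region and digestion cannot be told apart. The labels do not say whether the 3 libraries of a region came from separate mice, so the p-values measure the spread between these libraries.

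Counts on genes totalled between 16436526 and 19462964 per library, and a floor of 3 counts corresponded to between 0.154 and 0.183 CPM, the count scaled to library size with TMM factors. The blast marker genes fixed for the check were detected, with Kit between 3046 and 4513 counts and Runx1t1, the ETO gene, between 350 and 743, although Flt3 reached at most 16 counts. Of the osteoblast markers, Alpl and Sp7 had no count in any library, and the 5 markers together summed to between 0 and 0.263 CPM in CBM and between 0 and 0.445 CPM in EBM. The 4 T cell markers summed to at most 0.842 CPM and the 4 B cell markers to at most 1.05 CPM, with Ms4a1 at 0. Erythroid markers were present in all libraries and summed to between 2136 and 5462 CPM in CBM and between 2520 and 3913 CPM in EBM. The first principal component of log2 CPM over all tested genes held 53.0% of the variance and did not follow the regions. It placed EBM replicate 3 (score -46.0) and CBM replicate 2 (-42.9) at one end and CBM replicate 1 (38.5) and EBM replicate 1 (36.4) at the other. The second component held 19.7% of the variance and parted the regions. CBM replicates 1 to 3 scored 22.78, 3.58 and 31.52 on it, and EBM replicates 1 to 3 scored -22.22, -20.85 and -14.8.

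Among the FoxO factors, Foxo3 was the most abundant transcript in both regions, Foxo4 came next and Foxo1 was close to absent. Foxo3 (ENSMUSG00000048756) spans chr10:42181841-42276755 on the minus strand (build GRCm38, as for all positions here). Per kilobase of gene length its level was 29.4, 47.1 and 34.9 CPM in CBM replicates 1 to 3 and 37.2, 37.6 and 52.1 CPM in EBM replicates 1 to 3. Foxo4 (ENSMUSG00000042903, chromosome X, 101254528 to 101260873) measured 15.2, 21.5 and 15.4 CPM per kilobase in CBM and 16.1, 15.8 and 19.01 in EBM. Foxo3 was thus between 1.94 and 2.74 times Foxo4 per kilobase, and in each of the 6 libraries it was the higher of the pair.

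Foxo1 (ENSMUSG00000044167, chromosome 3, 52268336 to 52353221), the FoxO factor best known from liver and lymphocytes, had 1, 5 and 0 counts in CBM and 2, 1 and 0 counts in EBM. Only CBM replicate 2 lay above the floor of 3 counts. Foxo6, the remaining FoxO gene, had 0 counts in all libraries. Bcl6 (ENSMUSG00000022508, chromosome 16, 23965052 to 23988852), a BTB zinc finger repressor of germinal centre B cells and a known FoxO target, had 0, 4 and 1 counts in CBM and 0, 3 and 3 in EBM. No fold change is given for Foxo1 or Bcl6, since both regions were at or near the floor. A difference between the regions was not detectable for them at this depth.

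The other members covered a wide range of levels per kilobase. Txnip was highest, between 103 and 340.5 CPM per kilobase, and its range overlapped that of Cited2, between 54.5 and 147. Cdkn1b, between 31.2 and 51.3, could not be set apart from Foxo3, between 29.4 and 52.1. The range of Irs2, from 10.1 to 32.3, overlapped those of Foxo4 (15.2 to 21.5) and of Ccng2 (8.32 to 14.4). Pik3ip1 was the lowest of the tested members, between 4.23 and 6.52 CPM per kilobase, and its range stayed below that of Ccng2.

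**Figure D1:**
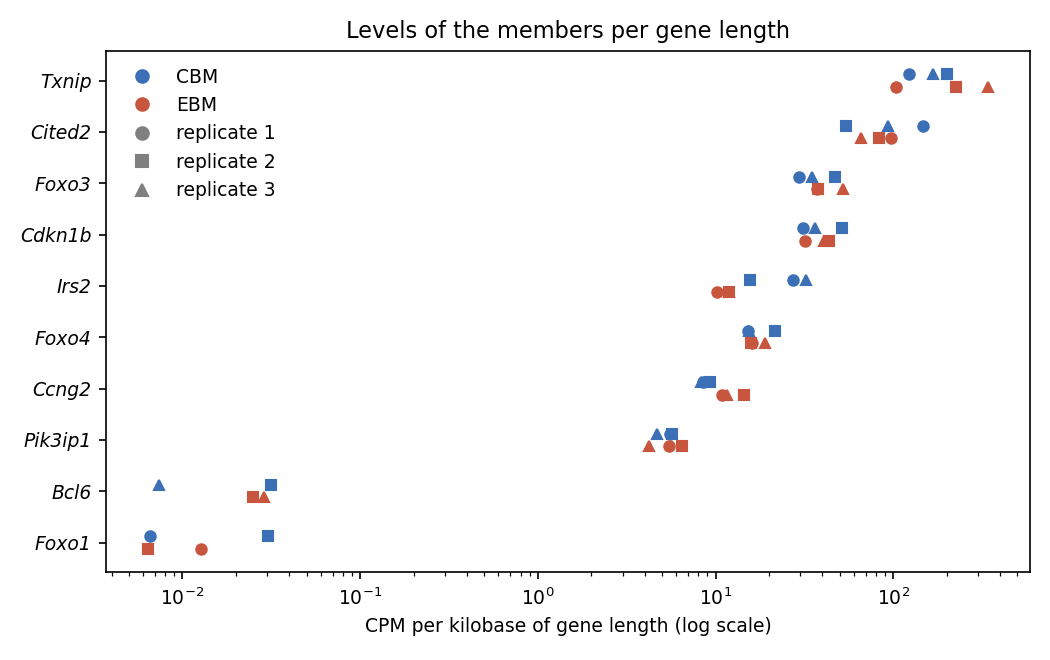
Levels of the 10 members in CPM per kilobase of gene length, on a log axis, with 1 point per library coloured by region and shaped by replicate number. Libraries at 0 counts (CBM replicate 3 and EBM replicate 3 for Foxo1, CBM replicate 1 and EBM replicate 1 for Bcl6) have no point, and Foxo1 and Bcl6 sit far below the other 8 genes, which lie between 4.23 and 340.5 CPM per kilobase.

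The study compared EBM with CBM to learn what the endosteal region does to leukemia cells. For the FoxO genes the libraries were parted by region, in opposite directions, at a pair of targets: Irs2 was lower and Ccng2 higher in every EBM library, while the factors Foxo3 and Foxo4 overlapped between regions. None of the 8 tested members had an adjusted p under 0.05 by edgeR (quasi-likelihood), nor did any of the 13352 genes tested (0.00% called). At an unadjusted p under 0.05 there were 2 of 8 members, with Ccng2 higher and Irs2 lower, where 7.91% of all genes tested reached it. DESeq2 called 1 member, Irs2, as lower, beside 1.39% of the genes it tested (0.349% lower and 1.04% higher). The libraries of the regions did not overlap for 2 of the 8 members, beside 15.1% of all genes tested (7.47% with EBM higher and 7.65% with EBM lower). With so few members these counts are a description of these genes. Of the 8, 4 had a log2 ratio above 0 (50.4% of all genes) and 4 below, with a median of -0.0025, beside a median of 0.0017 over all genes tested.

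**Figure D2:**
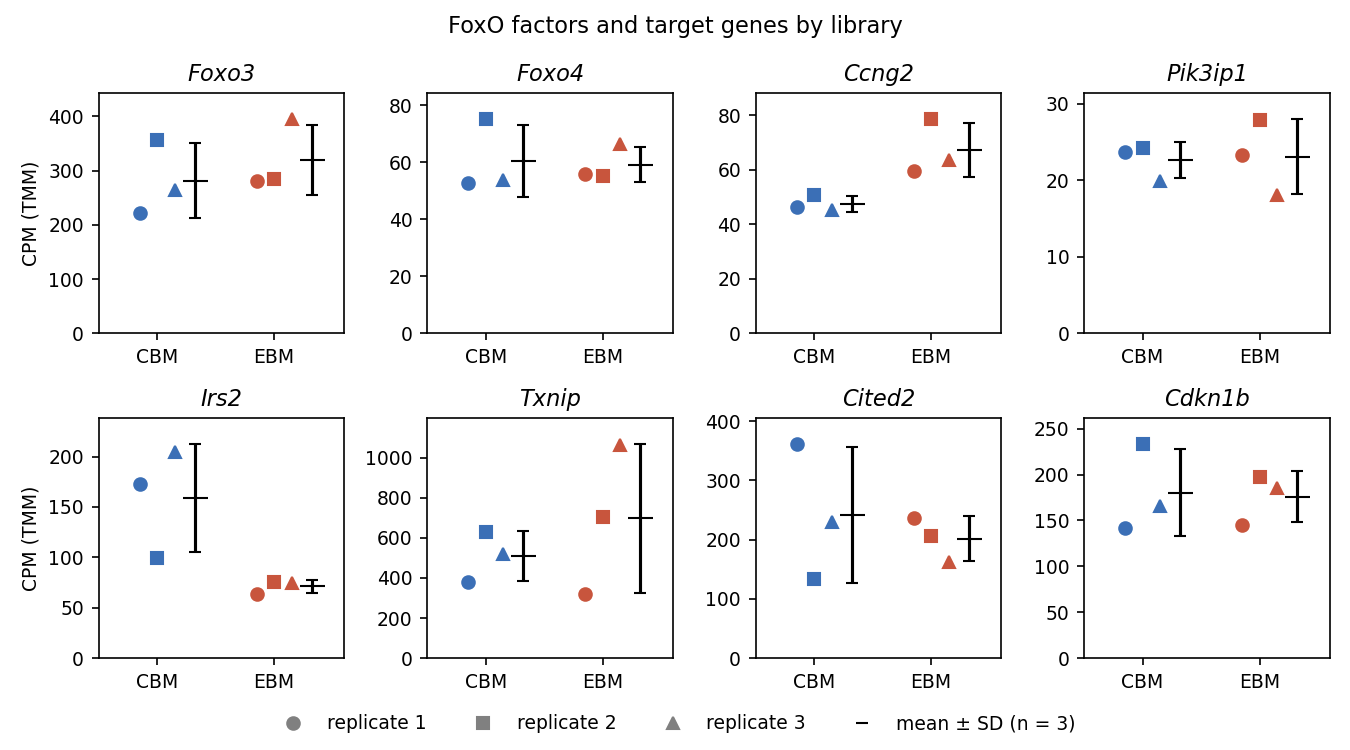
CPM of the 8 tested members in each library on axes that start at 0, with CBM in blue, EBM in red, replicate numbers as symbols and the mean ± SD of the 3 libraries in black. Irs2 is lower in all EBM libraries (64.0 to 75.4 CPM against 99.4 to 204) and Ccng2 higher (59.6 to 78.6 against 45.4 to 51.0), and the regions overlap in the other 6 panels.

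Irs2 (ENSMUSG00000038894) encodes insulin receptor substrate 2, the adaptor that passes the signal of insulin and IGF receptors to PI3K and so stands upstream of AKT as well as being a FoxO target. It lies on the minus strand of chromosome 8, from 10984681 to 11008458. Its level was 173, 99.4 and 204 CPM in CBM replicates 1 to 3 and 64.0, 75.4 and 75.0 CPM in EBM replicates 1 to 3. The EBM libraries lay close together and all below the lowest CBM library, whereas the CBM libraries spread over a wide range. CBM averaged 159 ± 53.7 CPM and EBM averaged 71.5 ± 6.44 CPM (SD, n = 3 each), so CBM was 2.22-fold EBM. The fitted log2 ratio of EBM to CBM was -1.15 (SE 0.25), with an edgeR unadjusted p of 0.00292 and, over all genes tested, an edgeR adjusted p of 0.290. DESeq2 gave -1.15 (SE 0.27) and an adjusted p of 0.00267, so the call depends on the tool. An exact permutation test of the 6 libraries gave a two-sided p of 0.1, the smallest that 3 against 3 allow. The first 609 bases of the gene overlap 9530052E02Rik on the opposite strand, which had at most 6 counts in a library. Markers of tissue dissociation, 12 genes that include the immediate early genes, were all detected and summed to 9269, 5939 and 3158 CPM in CBM and 8879, 6909 and 7427 CPM in EBM. Fosb was the largest part of this sum in every library, at 944 CPM in CBM replicate 3 and 5011 CPM in EBM replicate 1. Of this list, only the phosphatase gene Dusp1 was lower in every EBM library, as Irs2 was. It was 1329, 764 and 595 CPM in CBM and 382, 447 and 399.8 CPM in EBM. Other genes were parted in the opposite direction. The heat shock gene Hspa1b was 9.50, 3.74 and 3.37 CPM in CBM and 112, 50.3 and 58.6 CPM in EBM. Junb was 1050, 747 and 543 CPM in CBM and 1093, 1087 and 1166 CPM in EBM. Hspa1a had 2 counts in each CBM library and 53, 50 and 22 counts in EBM. The rest of the list overlapped between regions. The part of these genes in the Irs2 difference was not tested.

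Ccng2 (ENSMUSG00000029385) encodes cyclin G2, an unusual cyclin that slows the cell cycle and is induced by FoxO factors when PI3K signalling is low. It lies on the plus strand of chromosome 5, from 93267257 to 93276231. It measured 46.4, 51.0 and 45.4 CPM in CBM and 59.6, 78.6 and 63.55 CPM in EBM. The 3 CBM libraries were within a narrow band and each EBM library was above it, with EBM replicate 2 the highest. On the means EBM was 1.41-fold CBM, with a log2 ratio of 0.50 (SE 0.13) and an adjusted p of 0.368 by edgeR and 0.1004 by DESeq2. The exact permutation test again gave p = 0.1.

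Promoter windows from RefSeq (build GRCm38.p6), each from 250 bases before to 50 bases after an annotated start site, were available for 9 of the 10 members and not for Foxo4. The windows of the pair whose libraries did not overlap between regions are shown with that of Txnip, the single member whose window holds GTAAACA. The letters searched were GTAAACA, the consensus to which forkhead factors of this family bind, and the shorter core AAACA, which is part of it, each on both strands (as TGTTTAC and TGTTT). Other forms of the FoxO binding site were not searched. Capitals mark the matches, and each window reads 5′ to 3′ on the strand of its gene.
Irs2, chr8:11008880-11009179, minus strand: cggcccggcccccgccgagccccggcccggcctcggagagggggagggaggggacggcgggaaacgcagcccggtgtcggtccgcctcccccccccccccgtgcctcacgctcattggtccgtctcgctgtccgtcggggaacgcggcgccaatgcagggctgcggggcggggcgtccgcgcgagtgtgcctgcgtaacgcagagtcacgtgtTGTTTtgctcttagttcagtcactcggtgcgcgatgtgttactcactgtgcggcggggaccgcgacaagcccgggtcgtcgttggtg
Ccng2, chr5:93267323-93267622, plus strand: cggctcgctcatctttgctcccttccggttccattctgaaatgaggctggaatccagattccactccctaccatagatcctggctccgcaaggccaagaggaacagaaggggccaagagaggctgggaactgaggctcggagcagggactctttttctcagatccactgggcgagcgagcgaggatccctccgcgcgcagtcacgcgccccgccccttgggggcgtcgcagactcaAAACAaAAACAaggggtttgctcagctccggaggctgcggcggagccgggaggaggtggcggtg
Txnip, chr3:96557707-96558006, plus strand: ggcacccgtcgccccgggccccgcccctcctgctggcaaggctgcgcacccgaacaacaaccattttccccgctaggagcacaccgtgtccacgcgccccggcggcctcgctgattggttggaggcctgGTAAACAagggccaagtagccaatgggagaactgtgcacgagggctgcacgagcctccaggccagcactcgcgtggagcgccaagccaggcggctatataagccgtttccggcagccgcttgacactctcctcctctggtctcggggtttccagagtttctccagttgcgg
The Txnip match to GTAAACA begins 121 bases before the start site. In the Ccng2 window a pair of AAACA cores begins 14 and 8 bases before the start, and in the Irs2 window TGTTT begins 37 bases before it. GTAAACA was in 3.65% of all 32851 promoter windows of this length, in 2.69% of those of genes tested and in the windows of 1 of the 9 members. The core was in 50.5% of all windows, in 38.6% of those of genes tested and in at least 1 window of 8 of the 9 members. Foxo3 alone had neither. The Irs2 and Ccng2 start sites of RefSeq differ from the gene ends in the count table. A match is letters in a window, and binding was not measured.

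Txnip (ENSMUSG00000038393, chromosome 3, 96557957 to 96561883), which binds thioredoxin and limits glucose uptake, was the member with the widest spread between libraries. It measured 381, 628 and 520.5 CPM in CBM and 322, 704.5 and 1063 CPM in EBM, so the EBM libraries held both its lowest and its highest value. The highest library was 3.30 times the lowest. The log2 ratio was 0.45 (SE 0.41, edgeR adjusted p = 0.892), and the difference was within the spread between replicates. It rested on single EBM libraries, being 0.79 without EBM replicate 1 and 0.00055 without EBM replicate 3. The gene lies within the antisense gene Gm15441, which had between 10 and 38 counts where Txnip had at least 5830.

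Cdkn1b (ENSMUSG00000003031, chromosome 6, 134920401 to 134925513) encodes p27, the inhibitor of cyclin-dependent kinases through which FoxO factors are best known to hold cells in G1. It measured 142, 233 and 165 CPM in CBM and 144.5, 198 and 185 CPM in EBM. The regions overlapped over most of their range, and the log2 ratio was -0.04 (SE 0.21, edgeR adjusted p = 0.990). Cited2 (ENSMUSG00000039910, chromosome 10, 17723218 to 17725674), which competes with HIF for p300 and CBP and is needed by blood stem cells, measured 361.5, 134 and 229 CPM in CBM and 237, 206 and 161.5 CPM in EBM. CBM replicates 1 and 2 were its highest and lowest libraries, so the EBM values fell inside the CBM range. Its log2 ratio was -0.26 (SE 0.34, edgeR adjusted p = 0.944), and 0.15 without CBM replicate 1.

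Pik3ip1 (ENSMUSG00000034614, chromosome 11, 3330401 to 3342971) encodes a membrane protein that binds and inhibits the catalytic subunit of PI3K. It was 23.7, 24.3 and 19.95 CPM in CBM and 23.35, 27.8 and 18.1 CPM in EBM. EBM replicate 2 lay above the CBM libraries, EBM replicate 3 below them and EBM replicate 1 within their range. Its log2 ratio was 0.03 (SE 0.18, edgeR adjusted p = 0.991), and its sign turned under other size factors.

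The factor genes themselves overlapped between regions. Foxo3 was 222, 357 and 264 CPM in CBM and 281, 285 and 394.5 CPM in EBM, a log2 ratio of 0.19 (SE 0.21, edgeR adjusted p = 0.925). Foxo4 was 52.9, 75.1 and 53.7 CPM in CBM and 56.0, 55.2 and 66.25 CPM in EBM, a log2 ratio of -0.03 (SE 0.16, edgeR adjusted p = 0.989). CBM replicate 2 was the sole CBM library above the EBM libraries' lowest value for either gene. Without it, both factors had all EBM libraries above the other CBM libraries, 4 of the 8 members did not overlap, and so did 26.3% of all genes tested. The log2 ratios were then 0.40 for Foxo3 and 0.15 for Foxo4, and neither passed the adjusted threshold (edgeR adjusted p = 0.707 and 0.835). The Foxo3 value was 0.0015 without EBM replicate 3 and 0.046 without CBM replicate 1, so it rested on single libraries in either direction.

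**Figure D3:**
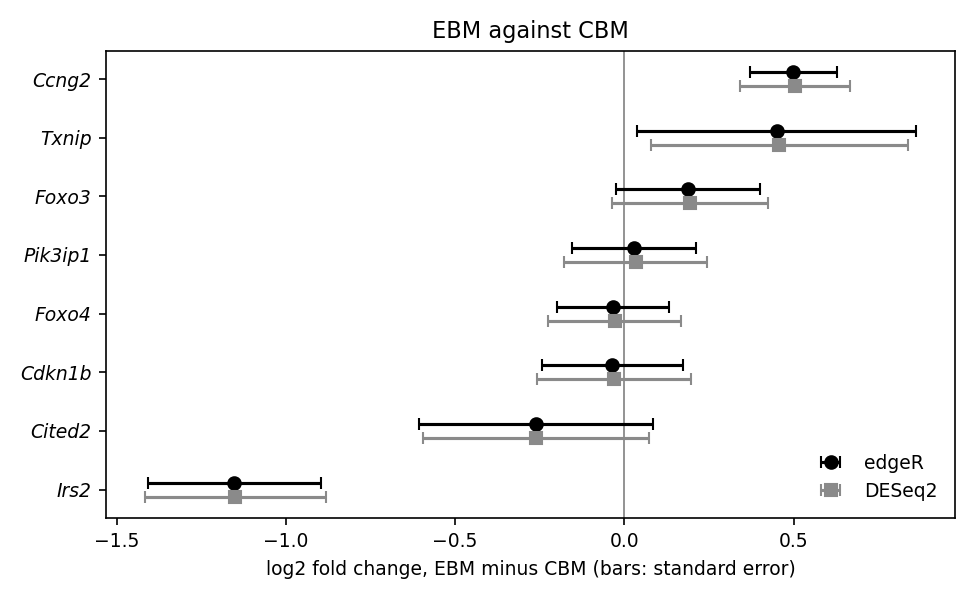
Log2 ratio (fold change) of EBM against CBM for the 8 tested members, with edgeR in black, DESeq2 in grey and bars of 1 standard error. Irs2 at -1.15 and Ccng2 at 0.50 stand away from 0, while Foxo4, Cdkn1b and Pik3ip1 lie within 0.04 of 0 by either tool.

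Part of the spread within a region was shared between some members, among them Foxo3, Foxo4, Cdkn1b and Cited2. EBM replicate 3 and CBM replicate 2, the libraries at the negative end of the first principal component, were the 2 highest libraries for Foxo3 and for Foxo4. CBM replicate 1, at the positive end, was the lowest library for Foxo3, Foxo4 and Cdkn1b. Cited2 had the reverse order, with CBM replicate 1 highest and CBM replicate 2 lowest. On the log2 scale, relative to each gene's mean over the 6 libraries, CBM replicate 2 was at 0.27 for Foxo3, 0.34 for Foxo4 and 0.41 for Cdkn1b, and at -0.65 for Cited2. In CBM replicate 1 the same genes were at -0.41, -0.17, -0.30 and 0.78. Irs2, which was parted by region, was also lowest in CBM replicate 2 within CBM, at -0.065 against 0.73 and 0.97 in CBM replicates 1 and 3.

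Other markers moved with these libraries. The osteoclast list, of which 2 of 3 markers were detected, summed to 270, 540 and 365 CPM in CBM and 258, 296 and 565 CPM in EBM, and was therefore highest in CBM replicate 2 and EBM replicate 3. The sum was carried by Acp5, while Ctsk had at most 4 counts and Calcr none. The erythroid markers, 6 of 6 detected, were also highest in CBM replicate 2 and in EBM replicate 3 within their regions, at 5462 and 3913 CPM. In EBM the rise of the sum from replicate 1 to replicate 3 went mostly with Hba-a1, at 808, 1549 and 2078 CPM. Hbb-bs was the largest part in EBM replicate 1 but was lowest in EBM replicate 3 (1279, 1338 and 807 CPM). The neutrophil markers, 5 of 5 detected, reached 214 CPM in CBM replicate 2 and 154 CPM in EBM replicate 2 and were between 3.28 and 48.5 CPM elsewhere. Some marker sums and single genes were lowest in CBM replicate 2 and EBM replicate 3. The megakaryocyte markers, 3 of 3 detected, summed to 10.95 and 7.07 CPM there and to between 13.6 and 28.5 CPM elsewhere. Itga2b carried this sum, whereas Gp9 was highest in these libraries (3.21 and 2.63 CPM) and Pf4 was lowest in CBM replicate 3. The blast marker Cd34 was at 1.16 and 1.22 CPM there and between 4.86 and 16.4 CPM elsewhere. Kit was lowest there too (210 and 196 CPM), but Myb was highest there (322 and 352 CPM). Flt3 was highest in EBM replicate 3 and Runx1t1 was lowest in CBM replicate 3. The blast sum was 558 and 572 CPM there and between 552 and 586 CPM elsewhere. The part of these markers in the levels of Foxo3, Foxo4, Cdkn1b and Cited2 was not tested, and in bulk RNA fewer cells of a type and less RNA per cell cannot be told apart.

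**Figure D4:**
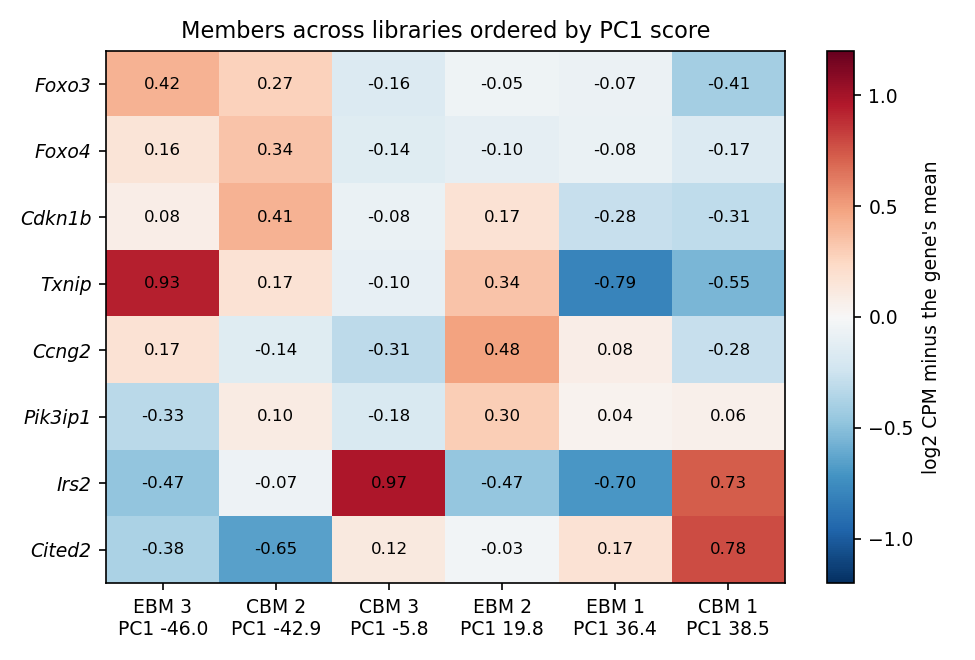
Log2 CPM of the 8 tested members minus each gene's mean over the 6 libraries, as colour and number, with libraries ordered from left to right by their score on the first principal component of all tested genes. Foxo3 and Foxo4 are highest in the 2 libraries on the left and Cited2 lowest there, whereas Irs2 is positive in CBM replicates 1 and 3 only.

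The genes whose log2 CPM followed Foxo3 most closely over the 6 libraries were Tceal9 (Pearson r = 0.995) and Acyp1 (0.995). For Foxo4 they were Sept4 (0.997), which the table lists under a date in place of its symbol, and Ap5s1 (0.997). Among the members, Foxo3 had r = 0.86 with Foxo4, 0.76 with Txnip, 0.71 with Cdkn1b, 0.36 with Ccng2, -0.38 with Pik3ip1, -0.57 with Irs2 and -0.92 with Cited2. These values describe 6 libraries that share the split above, and all are given with no test. Tceal9, Acyp1, Sept4 and Ap5s1 were picked as the highest of 13352 genes, whereas the members were a fixed list. No such value was computed for Foxo1, which was not tested.

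The wider pathway was read from lists of genes written from general knowledge. Of 41 other reported FoxO targets, 26 were tested and 15 were not, of which Irs1, Pck1, G6pc, Igfbp1 and Rag2, genes of metabolic tissue or lymphocytes, had 0 counts in all libraries. Of the 26, 16 lay above and 10 below a log2 ratio of 0, their median was 0.07, and 0 passed an adjusted p of 0.05 in edgeR's test or in DESeq2. At an unadjusted p under 0.05 there were 2 higher (4.01% of all genes) and 0 lower (3.90%). Gabarapl1, an ATG8 protein of autophagosomes, was 107, 112 and 103 CPM in CBM and 132, 143 and 168 CPM in EBM, with no overlap between regions (log2 ratio 0.46, edgeR adjusted p = 0.331). Ulk1, the kinase that starts autophagy, had a log2 ratio of 0.70 (edgeR adjusted p = 0.565), and CBM replicate 2 at 223 CPM lay above EBM replicate 1 at 207 CPM. Next by p among those higher were the antiproliferative gene Btg1 (0.52), the BH3-only gene Bbc3 (0.57) and the p21 gene Cdkn1a (0.90), and among those lower Tnfsf10, which encodes TRAIL (-0.51), the insulin receptor gene Insr (-0.28), S1pr1 (-0.88), Rbl2 (-0.18) and Klf2 (-1.07). Each of these 8 overlapped between regions. The other tested autophagy genes of the list overlapped as well, with log2 ratios of 0.09 for Map1lc3b, 0.05 for Atg14 and 0.04 for Bnip3.

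Of 21 genes for PI3K, AKT and the phosphatases that oppose them, 19 were tested, 7 were higher and 12 lower in EBM, and the median log2 ratio was -0.11. None passed the adjusted threshold in edgeR or in DESeq2, and 1, which was lower, had an unadjusted p under 0.05 (3.90% of all genes). This was Pik3cg, the catalytic subunit p110γ, at 89.4, 93.4 and 82.1 CPM in CBM and 77.4, 75.5 and 76.5 CPM in EBM (log2 ratio -0.21, edgeR adjusted p = 0.631). Others among those lower were Sgk1 (-0.83), Pik3ca (-0.20) and Sgk3 (-0.22), and among those higher Ppp2ca (0.19), Inpp5d (0.12), Pik3cb (0.35), Mapkap1 (0.08) and Mtor (0.06).

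All 20 genes for proteins that bind, modify or carry FoxO factors were tested, with 10 higher, 10 lower and a median log2 ratio of -0.0043. In edgeR's test 0 passed the adjusted threshold, and 1 was higher (4.01% of all genes) and 2 were lower (3.90%) at an unadjusted p under 0.05. The libraries of the regions did not overlap for 5 of the 20, beside 15.1% of all genes. Skp2, the ubiquitin ligase subunit that marks p27 and FOXO1 for degradation, was 21.2, 18.2 and 22.6 CPM in CBM and 13.2, 14.1 and 12.2 CPM in EBM. The regions did not overlap, the log2 ratio was -0.65 (SE 0.14, edgeR adjusted p = 0.275), and DESeq2 called it with an adjusted p of 0.0267. The deacetylase genes differed in sign, with Sirt1 at a log2 ratio of -0.29 (edgeR adjusted p = 0.591) and Sirt2 at 0.24 (edgeR adjusted p = 0.546), each without overlap between regions. Next were Ep300 (-0.17), Stub1 (-0.23) and Cdk2 (-0.09) among those lower, and the 14-3-3 genes Ywhae (0.20), Ywhaq (0.20) and Ywhaz (0.09) with Prmt1 (0.15) among those higher.

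**Figure D5:**
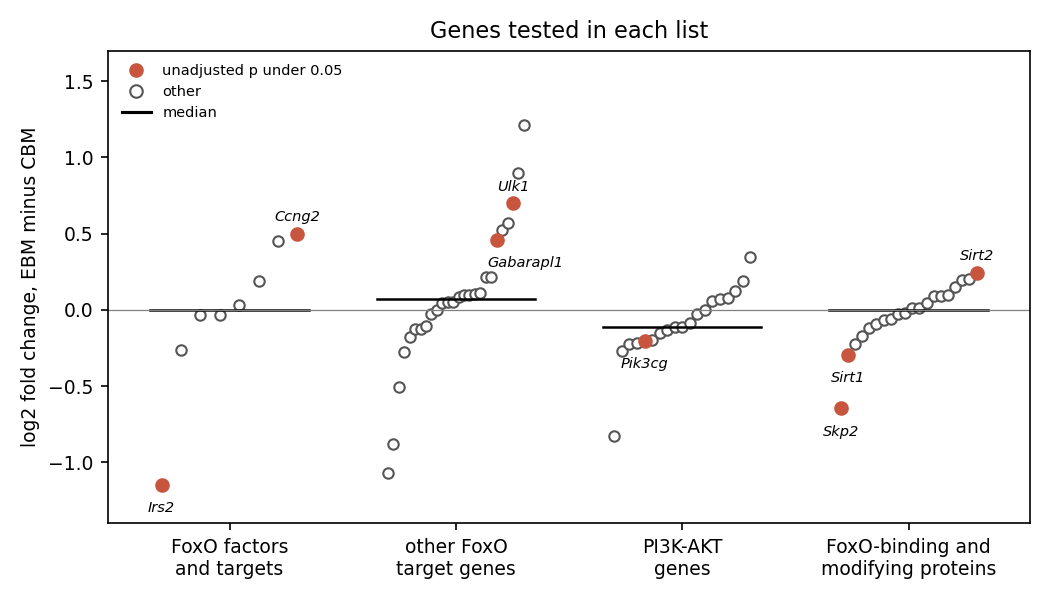
Log2 ratio (fold change) of EBM against CBM for each tested gene of the FoxO members and the 3 pathway lists, sorted within a list, with red points where edgeR gave an unadjusted p under 0.05 and a black line at the median. Irs2 and Skp2 are the lowest red points, and the medians are -0.0025, 0.07, -0.11 and -0.0043 from left to right.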

How the data were processed

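RNA-seq was read from 6 libraries. The authors made directional libraries from rRNA-depleted RNA, sequenced them as paired-end reads and deposited raw counts per gene. The submitters' processing notes name HISAT2 2.0.5 and mm10. The counting tool and its strand setting are not given in the sources used here, so antisense overlaps are uncertain. The gene length used for levels per kilobase is a deposited column. Of the gene identifiers, 54409 were in GENCODE M21 and 98.3% of these had the same coordinates there.

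Genes were filtered by filterByExpr, normalized by TMM and tested with edgeR 4.0.16 (quasi-likelihood, Benjamini-Hochberg over the 13352 genes tested, threshold 0.05). The design had the region as its single term, after the unpaired tests of the study. A standard error is the absolute log2 fold change divided by the square root of F. Single genes were compared by the 20 relabellings of log2 CPM (prior count 2). DESeq2 1.42.0, limma-voom 3.58.1, other size factors and filters, a replicate block and leaving out each library were alternatives. The fits were tested on simulated data. All members were named, with up to 5 genes per list and direction by smallest p, Foxo6 and the 2 genes most like each FoxO factor. A listed gene that this rule selects is not reported here. The members and lists were chosen with earlier results of these data known. The depth of 16436526 to 19462964 counts sets the floor of 3 counts, which covers counting error only.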

Additional observations from a re-analysis of the deposited data

How the results depend on the processing

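Over 14 alternatives, Irs2 kept a negative log2 fold change (-1.398 to -0.93) and Ccng2 a positive one (0.37 to 0.58). The adjusted p of Irs2 was between 0.00267, by DESeq2, and 0.917, that of Ccng2 between 0.1004 and 0.985. DESeq2 moved the count of genes called from 0 to 175 (1056 at an unadjusted p under 0.05 in edgeR), of members from 0 to 1 (Irs2, -1.15) and of FoxO-binding and modifying proteins from 0 to 1 (Skp2), and edgeR without a filter on low counts moved the count of genes to 40. Leaving out 1 library in turn, members whose regions did not overlap were 2 to 4, beside 21.2% to 26.9% of all genes tested. There were 4 when CBM replicate 2 was left out, beside 26.3% of all genes tested. Members at an unadjusted p under 0.05 in edgeR were 2 to 3, beside 4.94% to 8.22% of all genes tested. Txnip was added when EBM replicate 1 was left out, beside 5.19% of all genes tested. The sign turned for Foxo4 (-0.13 to 0.15), Pik3ip1 (-0.13 to 0.17), Cited2 (-0.55 to 0.15) and Cdkn1b (-0.18 to 0.20) when a library was left out, and for Pik3ip1 with upper-quartile size factors (-0.0032) and with library totals (-0.037). The cause was not tested. With the replicate number as a block, 0 genes and 0 members passed the adjusted threshold, the log2 fold changes were -1.10 for Irs2 and 0.49 for Ccng2, and no call changed. Same-numbered libraries had correlations of 0.68, -0.20 and 0.20 in their deviations from the region means, so the numbers were not taken to pair them. At this depth a difference in Foxo1 or Bcl6, with at most 5 counts in a library, was not detectable.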

Other observations

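The genes in this paragraph were chosen after their values were seen. Klf2 and Sgk1 were among the FoxO-linked genes outside the members that were highest in CBM replicate 1. Others of the lists, such as S1pr1, Bcl2l11 and Pik3cd, peaked there too, and many listed genes peaked elsewhere. Klf2, a quiescence factor of lymphocytes and a FoxO target, was 105, 12.6 and 13.5 CPM in CBM replicates 1 to 3 and 26.8, 30.7 and 4.50 CPM in EBM replicates 1 to 3. Sgk1, an AKT-like kinase that phosphorylates FoxO3, was 61.6, 26.5 and 21.7 CPM in CBM and 27.4, 19.2 and 14.97 CPM in EBM. Some genes of the dissociation list were highest there too. Fos was at 417 CPM (47.4 to 102 in the other libraries) and Jun at 994 CPM (216.5 to 538). Zfp36 was at 841.5 CPM (285 to 556) and Dusp1 at 1329 CPM (382 to 764). The rest of the list peaked elsewhere. Fosb, Egr1, Hspa1a and Hspa1b were highest in EBM replicate 1, and Atf3 in EBM replicate 2. Junb, Ier2 and Dnajb1 were highest in EBM replicate 3. The part of these genes in the Klf2 and Sgk1 levels was not tested. CBM replicate 1 also held the highest level of Cited2 and the lowest of Foxo3 among the 6 libraries. Akt1 averaged 228 ± 42.4 CPM over the CBM libraries and 228 ± 34.8 CPM over the EBM libraries (SD, n = 3), and Akt2 99.1 ± 7.30 and 97.5 ± 11.4 CPM.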
